A study of Mus musculus with 6 samples.

Results

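The translation factors described here are the proteins that bring ribosomes to messenger RNA, move them along it and release the finished chain. They were chosen by gene symbol, as 41 named genes for eukaryotic initiation, elongation and termination factors. All 41 were found among the 24110 genes of the deposited table, and all 41 passed the filter that left 14113 genes for testing. Their RNA was measured in hematopoietic stem cells, which sustain every blood lineage from the bone marrow, sorted from C57BL/6 mice by the gate Lineage-, Sca-1+, CD48-, CD150+. The control group, Prmt5 fl/fl, carried floxed but intact alleles of Prmt5, and the other group, Prmt5 KO, carried the deleted alleles. Prmt5 encodes an arginine methyltransferase that modifies splicing proteins, histones and other substrates. Cells were taken 7 days after induction in both groups. Each of the 3 libraries per group came from the pooled marrow of 2 mice, and the genotypes were matched for litter and sex. The sources used here do not give the recombinase, the inducing agent or the ages. P-values measure the spread between these pools.

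Initiation begins when eIF2, a GTP-binding complex, carries the initiator tRNA to the small ribosomal subunit, helped by eIF1, eIF1A and the large eIF3 complex. The cap of the mRNA is bound by eIF4F, made of the cap-binding protein eIF4E, the scaffold eIF4G and the RNA helicase eIF4A. After scanning to the start codon, eIF5 and eIF5B release eIF2 and join the large subunit, and eIF2B reloads eIF2 with GTP. In elongation, eEF1A delivers aminoacyl-tRNA, eEF2 moves the ribosome by one codon, and eIF5A eases the synthesis of difficult peptide bonds. The factors eRF1 and eRF3 (genes Etf1 and Gspt1) end the chain at the stop codon. Hematopoietic stem cells are known for a low rate of protein synthesis compared with the progenitors they give rise to.

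The libraries held 37834096 to 44704636 reads in genes, and values are scaled counts, that is reads scaled to a common total of 44704636. Prmt5 was at 6076, 6024 and 6010 scaled counts across fl/fl replicates 1, 2 and 3, against 1056, 1049 and 897 across KO replicates 1, 2 and 3 (log2 fold change -2.60, limma adjusted p = 6.18e-04), so each library matched its label. Of 9 stem cell markers all were detected in every library, with a summed share of reads of 0.195 to 0.290% in fl/fl and 0.205 to 0.238% in KO. The neutrophil granule gene Mpo stood highest in fl/fl replicate 1 (53564), and the myeloid integrin Itgam in KO replicate 3 (13041). The 9 megakaryocyte and platelet markers together took 0.156 to 0.187% of reads in fl/fl and 0.0694 to 0.130% in KO. The 8 red cell precursor markers took 0.00814 to 0.0254% and 0.00477 to 0.00622%, with the globin genes Hba-a1 and Hbb-bs listed at 0 in every library. Whether these zeros stand for absent RNA or for reads that were not counted was not tested. The part of these markers in the results below was not tested. In bulk samples fewer cells of a type and less RNA per cell cannot be told apart.

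Libraries differed by gene length, 1 control library most of all, and this touches the translation factors directly. In Prmt5 fl/fl replicate 3, long genes were low and short genes high against the mean of fl/fl replicates 1 and 2. Across all 14113 genes tested, Spearman's rho between this log2 difference and the deposited gene length was -0.574, and across the 41 factors it was -0.770 (genes of 1 library, given as a description). All 18 factors under 2000 bases were above the other fl/fl libraries, by a median log2 of 0.37. Of the 7 factors of 5000 bases or more, 6 were below them, with a median of -0.41. The scaffold genes Eif4g1, Eif4g2 and Eif4g3 were at -1.54, -1.26 and -1.25, the lowest of the 41, and Eif5b (7797 bases) was the exception among the long genes at 0.16. Among the KO libraries, each set against the mean of the other KO libraries, 36 of 41 factors were above in replicate 1 and 6 in replicate 3. Length ran through this order as well. All 18 factors under 2000 bases were above in KO replicate 1 (rho with length -0.406 across the 41) and 0 of 18 in KO replicate 3 (rho 0.572, median log2 -0.24 for the 18). Across all genes tested the rho was -0.260 and 0.191, nearer to 0 than in fl/fl replicate 3. For many factors whose log2 fold change moved with fl/fl replicate 3, values without it are given as well. Others moved too. Among them were Eif6 (from -0.051 to 0.086 without it) and Eif2b2 (from -0.015 to 0.11). Eif3i (from 0.033 to 0.16) and Eif3m (from 0.085 to 0.20) were further ones.

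**Figure D1:**
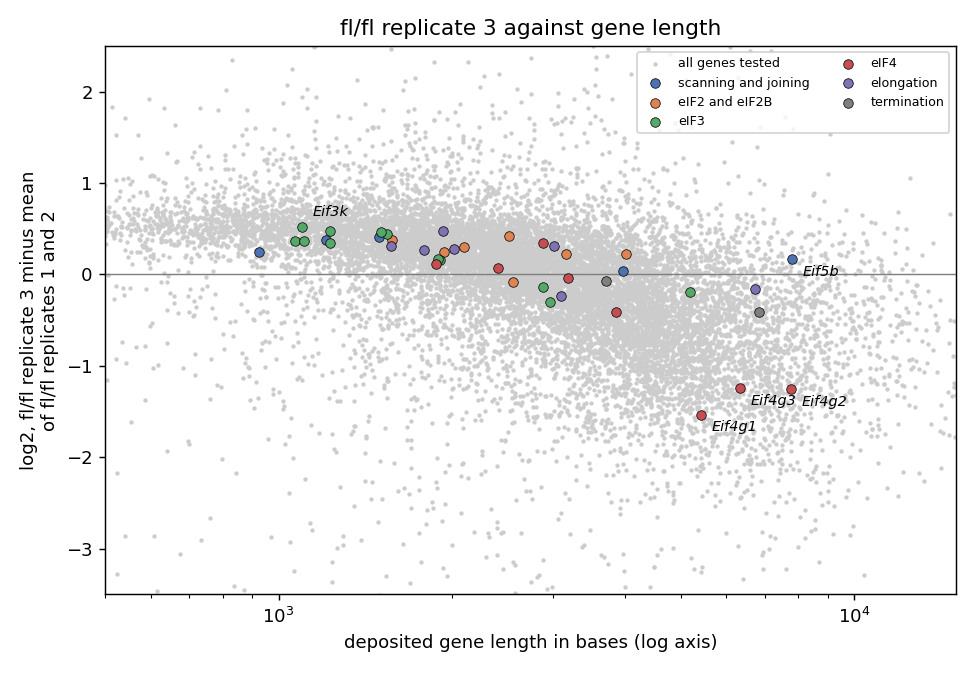
Each point is a gene, with its deposited length in bases on a log axis and, on the y axis, its log2 value in fl/fl replicate 3 minus the mean of fl/fl replicates 1 and 2; grey points are all genes tested (401 lie beyond the axes) and coloured points are the 41 translation factors by role. The factors under 2000 bases lie above 0 and the Eif4g genes lie far below 0.

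Promoter sequences were looked up for the factors in RefSeq (GRCm38.p6), which held 32 of the 41, from 250 bases before to 50 bases after the annotated start. The hexamer CACGTG, the E-box that MYC and related factors are known to bind, was in 10 of these 32 (31.2%), against 11.6% of 10537 tested genes with a promoter entry; a gene with several starts counted if any held it, and the letters read the same on both strands. The sequence CCGGAAGT, a site of ETS factors, searched on both strands, was in 6 of 32 (18.8%) against 8.57%. Of the other motifs searched, TGACGTCA was in 1 of 32 (3.1%) against 3.45%, and TATAAA in 4 of 32 (12.5%) against 8.92%. The factors with CACGTG had a median log2 fold change of 0.10 and the others one of 0.036. Among those with it, Eif3f, Eif4e and Eef2k were below 0 and the rest above. For CCGGAAGT the order was reversed, at -0.019 with the site and 0.074 without, and neither difference was tested. The stretches below show the hexamer, in capitals, before a RefSeq start of the helicase and scaffold genes of eIF4F, whose values are described library by library further on, and of the translocase gene Eef2. The Eif4g1 start is an internal one, so its stretch lies within the span of the gene in GENCODE M21.
Eif4a1 (chr11:69672580-69672639, minus strand, hexamer at -189 from the start): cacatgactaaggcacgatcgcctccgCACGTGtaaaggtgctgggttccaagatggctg
Eif4g1 (chr16:20672646-20672705, plus strand, hexamer at -54 from the start): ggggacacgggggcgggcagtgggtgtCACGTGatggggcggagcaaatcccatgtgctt
Eef2 (chr10:81176561-81176620, plus strand, hexamer at -43 from the start): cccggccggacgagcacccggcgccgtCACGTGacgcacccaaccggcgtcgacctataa

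Many mRNAs of the translation machinery are known to start with a run of pyrimidines, the terminal oligopyrimidine (TOP) start, through which mTOR signaling governs their translation. A run of at least 8 pyrimidines over the annotated start was in 4 of the 32 factors (12.5%) and in 4.89% of the 10537 tested genes. Because annotated starts can be off, neither a missing run nor a present one says how the mRNA starts. The 4 factors with a run were Eif3f, Eef1a1, Eif3l and Eif2b5. Of these only Eif3f and Eef1a1 are among the factors listed further on as known TOP mRNAs. A stretch of 30 bases around the annotated start is shown for these 2. The pyrimidine run in capitals was followed to both sides of that start, so part of it lies before the start. The Eef1a1 start is an internal one, within the span of the gene in GENCODE M21. Whether the marked runs are the TOP starts of these mRNAs was not tested.
Eif3f (chr7:108934400-108934429, plus strand): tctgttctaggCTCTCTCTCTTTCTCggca
Eef1a1 (chr9:78481710-78481739, minus strand): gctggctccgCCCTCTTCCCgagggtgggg

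Most factors were abundant in stem cells of both genotypes. Levels between genes were compared as RPKM, that is reads divided by the deposited gene length in kilobases and by the library total. On this scale the median factor stood at 112 in fl/fl, against 10.1 RPKM for all genes tested. Eef1a1, which encodes the carrier of aminoacyl-tRNA, was highest, at 2287 ± 259 in fl/fl and 2138 ± 224 in KO (SD, n = 3 each). Eif5a followed at 957 ± 117 and 1046 ± 109, apart from its neighbours on both sides by more than the SDs. The next 3, Eif1 (411 ± 63.7 in fl/fl), Eif4a1 (386 ± 23.5) and Eef2 (359 ± 33.4), did not differ beyond their spread. The lowest were Eif4g3 (21.5 ± 8.91 in fl/fl), Eif5b (13.4 ± 0.908) and Eif2b3 (13.1 ± 1.56), which overlapped within their SDs. The wide SD of Eif4g3 came with its low value in fl/fl replicate 3. Within complexes the levels per kilobase were uneven. The 12 eIF3 subunits ran from 69.5 ± 5.83 for Eif3a, the scaffold subunit, to 228 ± 34.9 for Eif3g in fl/fl. The 5 eIF2B subunits ran from 13.1 ± 1.56 for Eif2b3 to 58.5 ± 5.0 for Eif2b5, the catalytic subunit. Reads of Eef1a1 and other genes with processed pseudogenes are uncertain where a read fits both copies, since the sources used here do not say how such reads were counted.

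**Figure D2:**
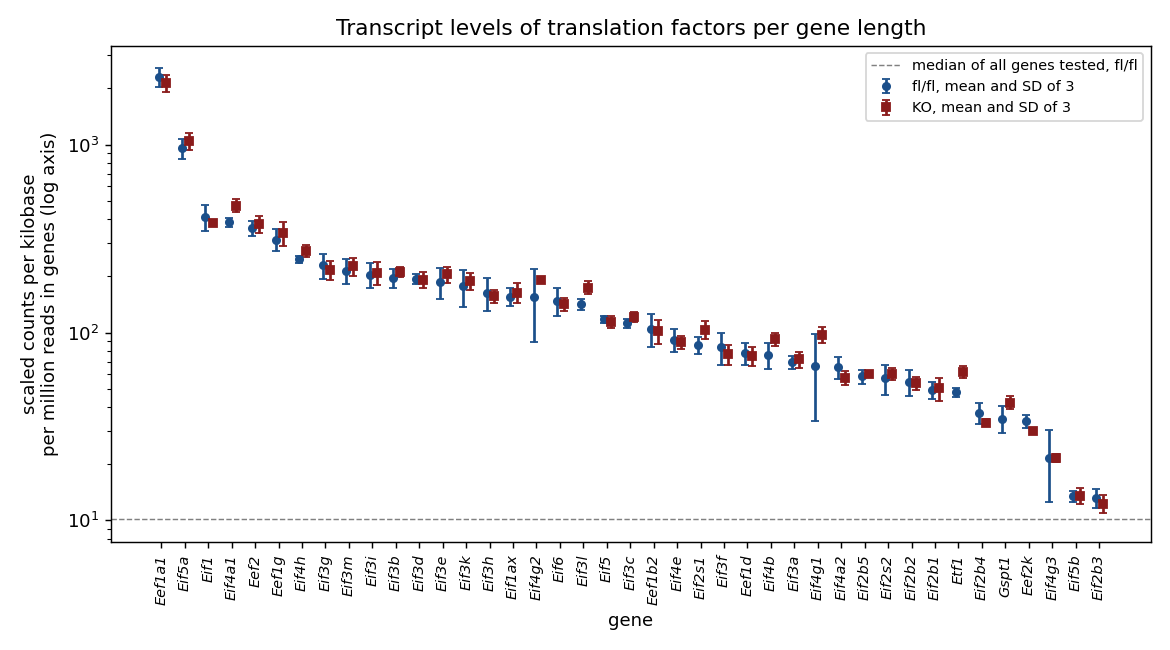
Transcript level of each translation factor as RPKM on a log axis, ordered by the fl/fl mean, with the mean and SD of 3 fl/fl libraries (circles) and 3 KO libraries (squares); the dashed line is the fl/fl median of all genes tested. Eef1a1 and Eif5a stand above the rest, and all 41 lie above the line.

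Between the genotypes no translation factor passed the test, and all but Eif4g1 had a log2 fold change within 0.5 of 0. None of the 41 passed the limma threshold (adjusted p below 0.05 over all genes), in either direction, against 0.73% of all genes tested (0.276% higher and 0.453% lower). At an unadjusted p below 0.05, 3 were higher (Etf1, Eif4a1 and Eif3l) and 0 lower, or 7.32% of the factors against 18.2% of all genes (4.58% higher and 13.6% lower). EdgeR on the recovered reads called 0 of the 41 and DESeq2 called 1, Etf1, where they called 0.425% and 6.95% of all genes (for DESeq2 2.59% higher and 4.36% lower). The groups did not overlap for 6 factors (14.6%), 5 higher and 1 lower, against 28.2% of all genes (8.3% higher and 19.9% lower). A log2 fold change beyond 0.5 in size was seen for 1 factor, Eif4g1, or 2.44%, against 27.9% of all genes. The factors were more abundant than most genes, and their median standard error was 0.14 against 0.21 for all genes. Shares among genes of like level were not computed.

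The median log2 fold change of the factors was 0.049, with 25 above 0 (61.0%, against 44.8% of all genes) and 16 below, against -0.048 for all genes tested. Scaling by median-of-ratios size factors gave 0.14, where the median of all genes was 0.039, so the number of factors above 0 depended on the scaling (34 of 41 there). The gap between both medians was 0.10 on the main scaling, 0.10 with those size factors and 0.049 with quantile normalization. Without fl/fl replicate 3 the median of the factors was 0.086, with 32 above 0, without fl/fl replicate 2 it was -0.014, and without KO replicate 3 it was 0.13. The median within each pair of libraries with the same title prefix was 0.16, 0.15 and -0.29, so the pair of fl/fl replicate 3 and KO replicate 3 went the other way. Together the 41 genes took 1.82 ± 0.0439% of reads in fl/fl and 1.92 ± 0.139% in KO (SD, n = 3 each). The values of the KO libraries, at 2.05, 1.93 and 1.78%, spanned those of the fl/fl libraries.

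**Figure D3:**
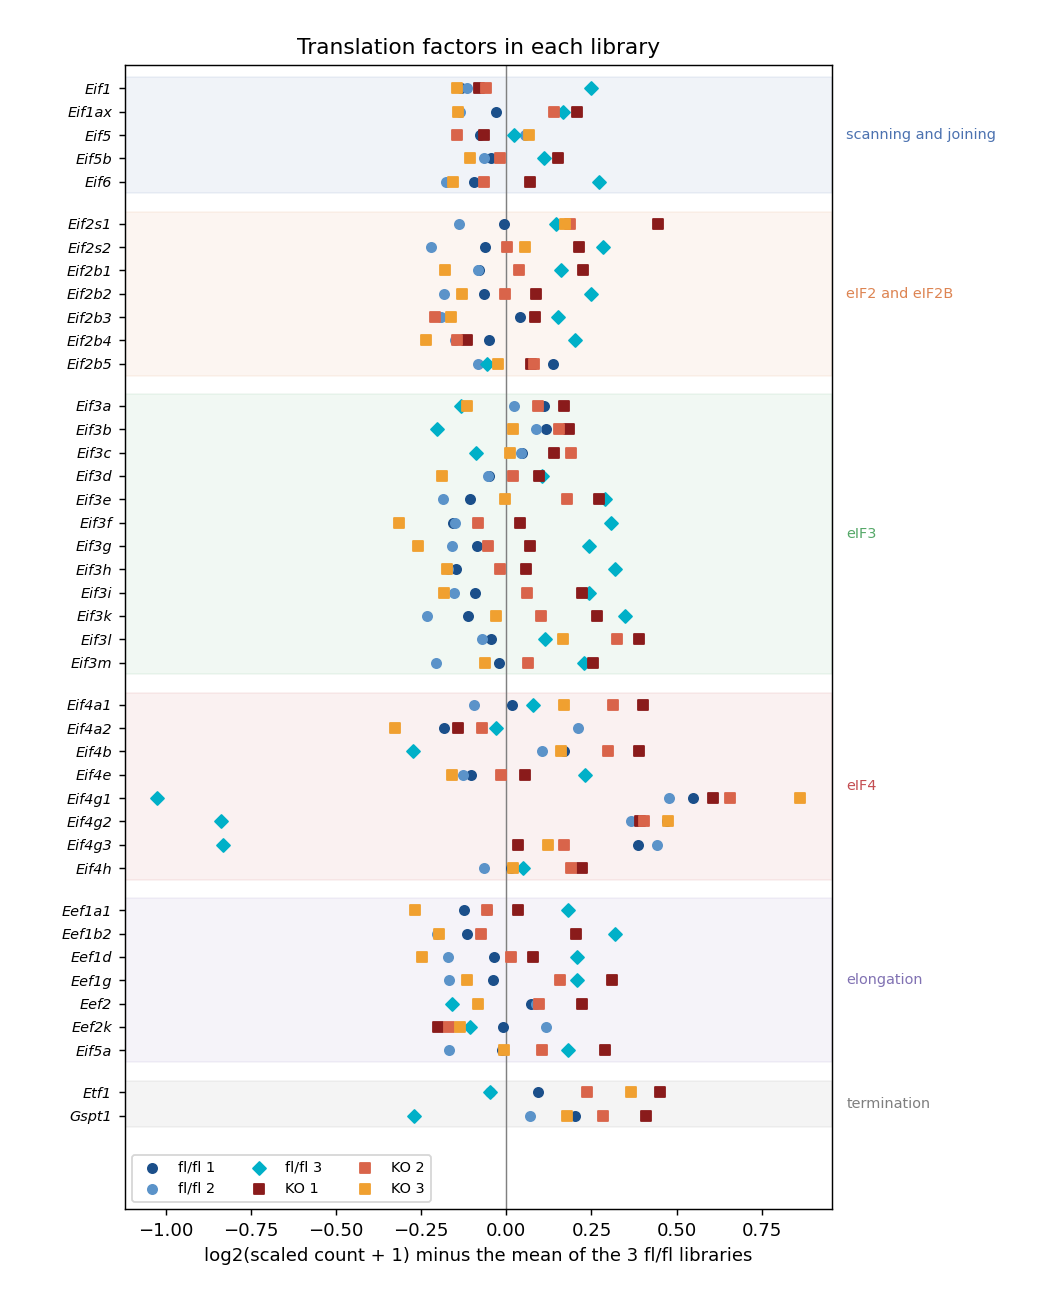
Each row is a translation factor, and each point its log2(scaled count + 1) in 1 library minus the mean of the 3 fl/fl libraries; circles and diamonds are fl/fl, squares are KO, and shaded bands mark the roles. Fl/fl replicate 3 (diamonds) lies far left for the Eif4g genes and to the right for most short eIF3 genes, and KO replicate 1 lies right of KO replicate 3 in most rows.

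**Figure D4:**
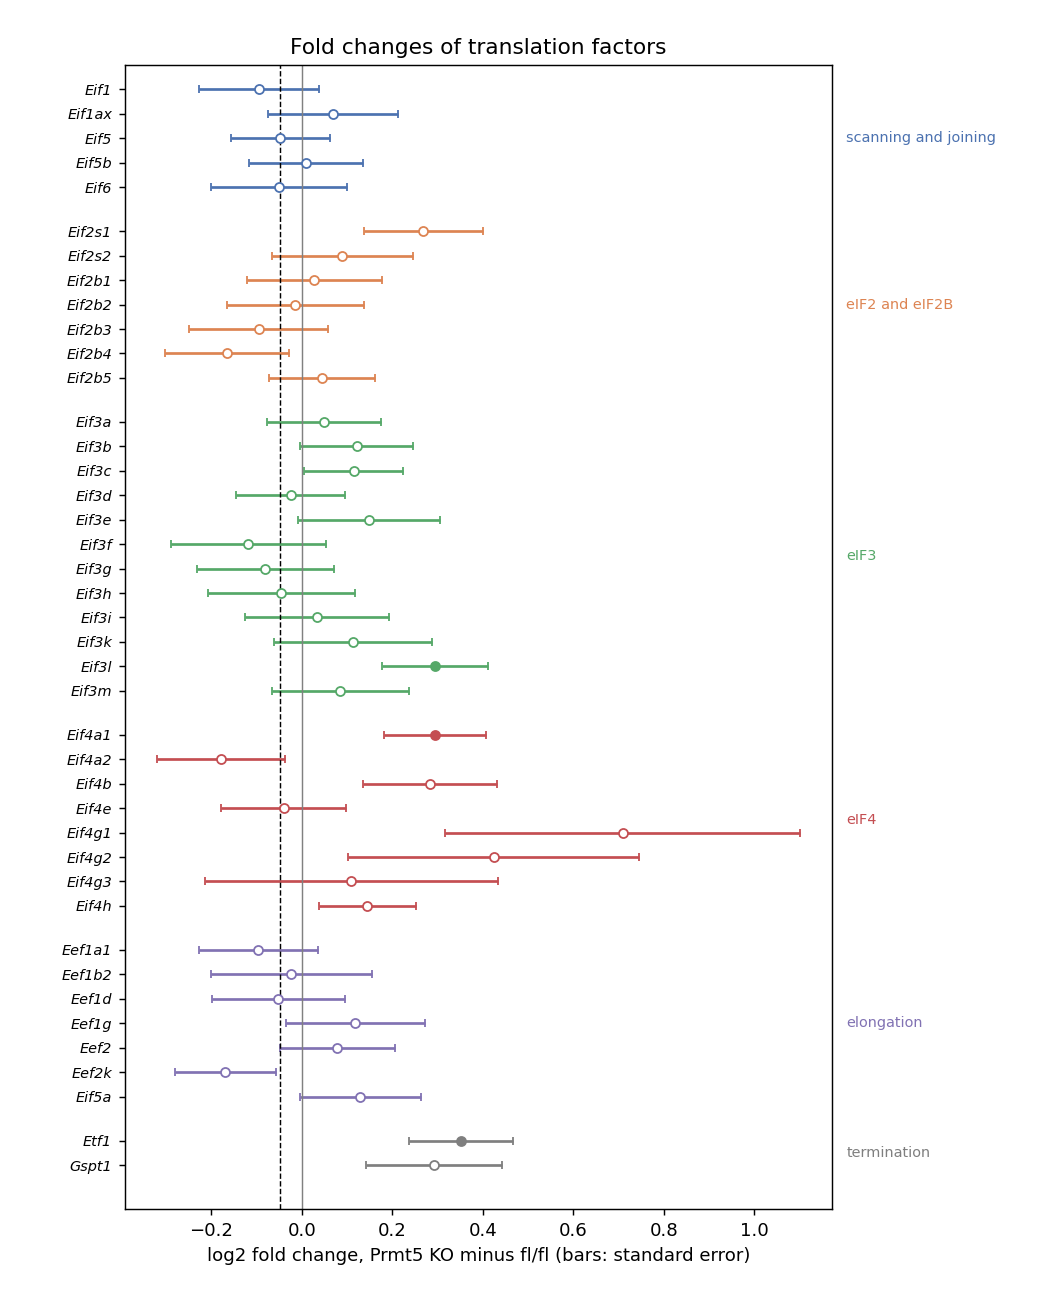
Log2 fold change of each translation factor, Prmt5 KO minus fl/fl, with its standard error from limma; filled points have an unadjusted p below 0.05 and the dashed line is the median of all genes tested. Filled points are Eif3l, Eif4a1 and Etf1, and Eif4g1 has both the highest fold change and the widest error.

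The 5 factors of scanning, start codon choice and subunit joining had close means in both groups. Their log2 fold changes ran from -0.095 (Eif1, which keeps scanning ribosomes from wrong start codons) to 0.069 (Eif1ax, its partner eIF1A), with standard errors of 0.11 to 0.15. The groups overlapped for all 5. Eif1 was at 20140, 20383 and 26229 scaled counts across fl/fl replicates 1, 2 and 3, against 20899, 21183 and 19978 across KO replicates 1, 2 and 3. The values of 5 libraries lay close together, and fl/fl replicate 3 was highest (log2 fold change 0.030 without it). For Eif5, which triggers GTP hydrolysis on eIF2, the 95% confidence interval of the log2 fold change was -0.30 to 0.21, and for Eif5b, the GTPase of subunit joining, it was -0.29 to 0.30 (limma). For Eif6, which keeps free large subunits apart from small ones, it was -0.40 to 0.30. Reads of Eif5b are uncertain, since 16.8% of its exon bases in GENCODE M21 overlap Rev1 on the other strand and the libraries are unstranded. The deposited length of Eif5b, 7797 bases, was shorter than its 9753 exon bases there, so the overlapping share of the bases counted is not known.

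In the eIF2 group no gene passed the test, and the groups did not overlap for Eif2s1 alone. Eif2s1 encodes eIF2 alpha, the subunit that stress kinases phosphorylate to slow initiation, and lies at chr12:78861819-78887010, plus strand (GRCm38/mm10, GENCODE M21). It was at 11998, 10928 and 13321 scaled counts across fl/fl replicates 1, 2 and 3, against 16389, 13711 and 13567 across KO replicates 1, 2 and 3. All 3 KO values were above all 3 fl/fl values, with KO replicate 1 highest. Group means were 12083 ± 1199 and 14556 ± 1589 (SD, n = 3 per genotype), for a log2 difference of 0.27 (standard error 0.13), which did not pass the test (limma, unadjusted p = 0.0785, adjusted p = 0.333). Eif2s2, the beta subunit, had a log2 fold change of 0.090 with overlapping groups. Without fl/fl replicate 3 the values were 0.34 for Eif2s1 and 0.23 for Eif2s2 (limma, adjusted p = 0.122 and 0.216). The 5 subunits of eIF2B, which recharges eIF2 with GTP, had log2 fold changes from -0.17 (Eif2b4) to 0.044 (Eif2b5). The groups overlapped for each, and the difference between Eif2s1 and these genes was not tested. The ratio of Eif2s1 to Eif2s2 per kilobase, which does not depend on the scaling of a library, was 1.52 ± 0.123 in fl/fl and 1.71 ± 0.0686 in KO (SD, n = 3 each; exact permutation test, two-sided, p = 0.1, which is the lowest value 3 and 3 libraries allow).

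Of the 12 eIF3 subunits, which hold the small ribosomal subunit and recruit mRNA, 8 had log2 fold changes above 0 and 4 below on the main scaling, with a median of 0.067. With median-of-ratios size factors Eif3d, Eif3g and Eif3h were also above 0. Eif3l had the lowest p of the complex. The gene lies at chr15:79075179-79094405, plus strand. It was at 11588, 11375 and 12938 scaled counts across fl/fl replicates 1, 2 and 3, against 15653, 14974 and 13404 across KO replicates 1, 2 and 3. The KO values were all above the fl/fl values, and fl/fl replicate 3 came nearest to them. Group means were 11967 ± 848 and 14677 ± 1153 (SD, n = 3 per genotype), and the log2 fold change was 0.29 (standard error 0.12, limma, unadjusted p = 0.0379, adjusted p = 0.243). Without fl/fl replicate 3 it was 0.35 (limma adjusted p = 0.0849), so the call was missed either way. Eif3a, Eif3b and Eif3c had log2 fold changes of 0.049, 0.12 and 0.11, and of -0.017, 0.018 and 0.070 without fl/fl replicate 3. The values of the other subunits ran from -0.12 (Eif3f) to 0.15 (Eif3e), with overlapping groups for each, and without fl/fl replicate 3 these 2 genes were at 0.034 and 0.29. Short subunits carried the pattern of fl/fl replicate 3: Eif3k was at 7879, 7249 and 10848 in fl/fl and 10259, 9158 and 8343 in KO (scaled counts, replicates in order), and Eif3h at 7973, 7839 and 11022 in fl/fl and 9193, 8716 and 7825 in KO (scaled counts, replicates in order). In both, fl/fl replicate 3 was the highest of the 6 libraries, and without it the log2 fold changes were 0.29 and 0.11. Reads of Eif3d are uncertain, since 43.3% of its 4968 exon bases in GENCODE M21 overlap the antisense gene Gm17638. The deposited length of Eif3d was only 1910 bases, so the overlapping share of the bases counted is not known.

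The eIF4 group, which binds the cap and unwinds the mRNA leader, had the widest range of log2 fold changes with all libraries. The range was from -0.18 (Eif4a2) to 0.71 (Eif4g1). Without fl/fl replicate 3 it was from -0.31 (Eif4g3) to 0.33 (Eif4a1), still the widest among the roles. Eif4a1 encodes the main eIF4A helicase and lies at chr11:69666936-69672423, minus strand. It was at 32798, 30317 and 34219 scaled counts across fl/fl replicates 1, 2 and 3, against 42762, 40282 and 36432 across KO replicates 1, 2 and 3. Every KO library was above every fl/fl library, by a small margin between KO replicate 3 and fl/fl replicate 3. Group means were 32445 ± 1975 and 39825 ± 3190 (SD, n = 3 per genotype), for a log2 difference of 0.29 (standard error 0.11, limma, unadjusted p = 0.0320, adjusted p = 0.226). Its paralog Eif4a2, the other cytosolic eIF4A helicase, was at 8157, 10710 and 9068 scaled counts across fl/fl replicates 1, 2 and 3, against 8394, 8815 and 7383 across KO replicates 1, 2 and 3. Here the groups overlapped and fl/fl replicate 2 was highest (log2 fold change -0.18, limma adjusted p = 0.536). The ratio of Eif4a1 to Eif4a2 per kilobase was 6.81, 4.80 and 6.39 in fl/fl and 8.63, 7.74 and 8.36 in KO, without overlap. Of 10 such ratios between factors that were computed, 5 had groups that did not overlap, each with an exact permutation p of 0.1 (two-sided; 0.2 after Benjamini-Hochberg adjustment). That p is the smallest possible here, so no ratio can pass the threshold, and ratios of other gene pairs were not computed for comparison.

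Eif4e, the cap-binding subunit and the step that mTOR signaling controls through 4E-BP proteins, was at 10944, 10761 and 13782 scaled counts across fl/fl replicates 1, 2 and 3, against 12198, 11627 and 10514 across KO replicates 1, 2 and 3. The groups overlapped, and fl/fl replicate 3 was highest. The log2 fold change was -0.041 with a 95% confidence interval of -0.36 to 0.28 (limma, adjusted p = 0.897), and its sign turned with median-of-ratios size factors (0.046) and without fl/fl replicate 3 (0.074).

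The scaffold genes rested on 1 library. Eif4g1, the eIF4G of the cap complex, lies at chr16:20668313-20692884, plus strand and was at 21000, 19988 and 7052 scaled counts across fl/fl replicates 1, 2 and 3, against 21887, 22639 and 26100 across KO replicates 1, 2 and 3. Fl/fl replicate 3 stood at 0.344 times the mean of the other fl/fl libraries, while those 2 lay just under the KO values. Group means were 16013 ± 7777 and 23542 ± 2247 (SD, n = 3 per genotype), for a log2 difference of 0.71 (standard error 0.39, limma, adjusted p = 0.386). Without fl/fl replicate 3 it was 0.20 (limma, adjusted p = 0.283). Eif4g2, the scaffold of cap-independent initiation also called DAP5, was at 68697, 63818 and 27681 in fl/fl and 64976, 65500 and 68875 in KO (scaled counts, replicates in order). Its log2 fold change was 0.42 with all libraries and 0.0047 without fl/fl replicate 3. Eif4g3, the second cap scaffold, was at 7377, 7665 and 3166 in fl/fl and 5776, 6346 and 6134 in KO (scaled counts, replicates in order), with KO values below those of fl/fl replicates 1 and 2 and above that of replicate 3. Its log2 fold change of 0.11 became -0.31 without that library (limma, adjusted p = 0.0907). The ratio of Eif4g1 to Eif4g3 per kilobase compares 2 long genes within each library. It was 3.32, 3.04 and 2.60 in fl/fl and 4.42, 4.17 and 4.97 in KO, higher in every KO library (exact permutation test, two-sided, p = 0.1).

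The helicase cofactors were the remaining members of the group. Eif4b was at 14619, 13975 and 10744 in fl/fl and 17041, 15979 and 14527 in KO (scaled counts, replicates in order), and fl/fl replicate 3 was lowest. KO replicate 3 lay between the fl/fl values, so the groups overlapped, and the log2 fold change was 0.28 (limma, adjusted p = 0.364) or 0.15 without fl/fl replicate 3. Eif4h had a log2 fold change of 0.14 (SE 0.11) and overlapping groups.

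**Figure D5:**
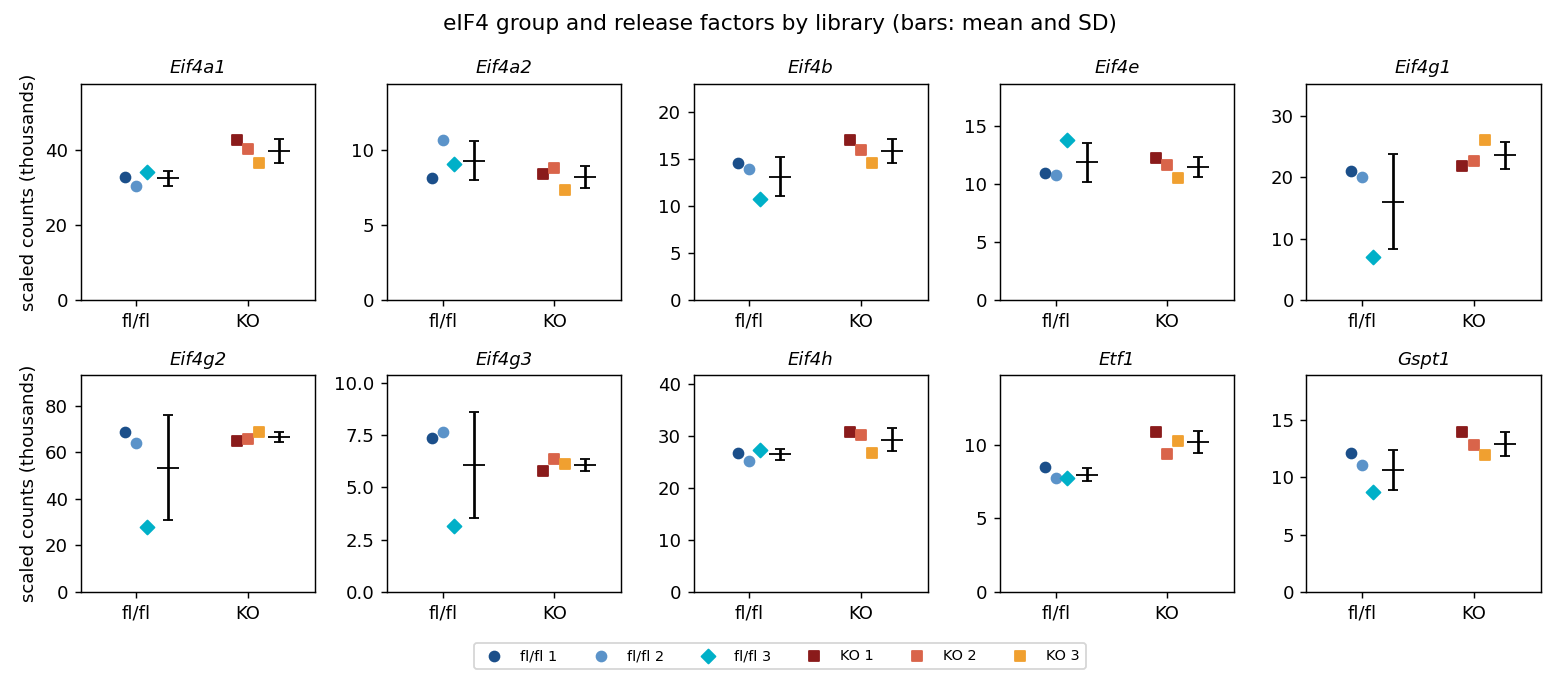
Scaled counts, on axes from 0, of the 8 genes of the eIF4 group and the 2 release factor genes in each library, with the mean and SD of each group of 3 beside the points. In the 3 Eif4g panels fl/fl replicate 3 (diamond) lies far below the other libraries, while in the Eif4a1 and Etf1 panels all KO points lie above all fl/fl points.

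The elongation factors overlapped between the genotypes, apart from Eef2k. Eef1a1 was at 167300, 175036 and 206411 scaled counts across fl/fl replicates 1, 2 and 3, against 186404, 175253 and 151306 across KO replicates 1, 2 and 3. The groups overlapped, with fl/fl replicate 3 highest and KO replicate 3 lowest. Its log2 fold change was -0.10 with a 95% confidence interval of -0.40 to 0.21 (limma, adjusted p = 0.724), and -0.0066 without fl/fl replicate 3. The exchange factor subunits that reload eEF1A, Eef1b2, Eef1d and Eef1g, had log2 fold changes of -0.023, -0.052 and 0.12, and of 0.14, 0.052 and 0.22 without fl/fl replicate 3. Eef2, the translocase, was at 52129, 52634 and 44380 scaled counts across fl/fl replicates 1, 2 and 3, against 57791, 53017 and 46788 across KO replicates 1, 2 and 3. The groups overlapped, fl/fl replicate 3 was lowest, and the log2 fold change was 0.078 (interval -0.22 to 0.38; limma adjusted p = 0.772) or -0.0012 without that library. Eef2k encodes the kinase that inactivates eEF2, and was at 10040, 10970 and 9391 in fl/fl and 8796, 8995 and 9197 in KO (scaled counts, replicates in order). It was the 1 factor with every KO value below every fl/fl value, at a log2 fold change of -0.17 (SE 0.11, limma, unadjusted p = 0.169, adjusted p = 0.459). Eif5a, whose protein carries the amino acid hypusine, was at 85108, 76426 and 97420 scaled counts across fl/fl replicates 1, 2 and 3, against 104959, 92355 and 85515 across KO replicates 1, 2 and 3. Its groups overlapped, with KO replicate 1 highest and fl/fl replicate 2 lowest (log2 fold change 0.13, limma adjusted p = 0.638), and without fl/fl replicate 3 the log2 fold change was 0.22.

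Both release factor genes had positive log2 fold changes. Etf1, which encodes the stop codon reader eRF1, lies at chr18:34902785-34932007, minus strand and was at 8509, 7717 and 7715 scaled counts across fl/fl replicates 1, 2 and 3, against 10900, 9404 and 10270 across KO replicates 1, 2 and 3. The lowest KO value was above the highest fl/fl value, and the fl/fl libraries lay close together, replicate 3 included. Group means were 7980 ± 458 and 10192 ± 751 (SD, n = 3 per genotype), for a log2 difference of 0.35 (standard error 0.11), the lowest p of the 41 (limma, unadjusted p = 0.0169, adjusted p = 0.174). EdgeR gave an adjusted p of 0.150 and DESeq2 one of 0.0422. Without each library in turn the log2 fold change of Etf1 ran from 0.30 to 0.41 and its limma adjusted p from 0.104 to 0.489. Gspt1, the gene of the GTPase eRF3, was at 12109, 11065 and 8724 scaled counts across fl/fl replicates 1, 2 and 3, against 14007, 12824 and 11932 across KO replicates 1, 2 and 3. Here KO replicate 3 lay between the fl/fl values, so the groups overlapped. The log2 fold change was 0.29 (SE 0.15, limma, adjusted p = 0.359), and 0.16 without fl/fl replicate 3, the library with the lowest value.

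Of the factors, 9 are known to have TOP mRNAs: Eef1a1, Eef1b2, Eef1d, Eef1g, Eef2, Eif3e, Eif3f, Eif3h and Eif4b. None had groups that did not overlap, against 28.2% of all genes. Above 0 were 4 log2 fold changes (44.4%, against 44.8% of all genes), and 5 were below. The median was -0.023, against 0.049 for all 41 and -0.048 for all genes. Within the same-prefix pairs of libraries their medians were 0.21, 0.15 and -0.45. With median-of-ratios size factors Eef1b2, Eef1d and Eif3h turned to 0.064, 0.035 and 0.042, so these signs depended on the scaling.

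Genes that regulate these factors were listed by symbol as well. Of 21 translation regulators, 0 passed the limma threshold over all genes, 0 had an unadjusted p below 0.05 upward and 3 downward (Pdcd4, Mknk1 and Ppp1r15a), and the median log2 fold change was 0.0087, against -0.048 for all genes. The share lower was 14.3%, near the 13.6% of all genes. EdgeR called 0 and DESeq2 called 1 (4.76%, against 6.95% of all genes). Pdcd4, which holds eIF4A away from eIF4G, had the lowest p and was at 6282, 7365 and 10342 scaled counts across fl/fl replicates 1, 2 and 3, against 4691, 4068 and 4843 across KO replicates 1, 2 and 3. Every KO value was below every fl/fl value, and fl/fl replicate 3 was highest. Its log2 fold change was -0.79 (SE 0.20, limma, unadjusted p = 0.00424, adjusted p = 0.105; DESeq2 adjusted p = 0.0275). Without fl/fl replicate 3 it was -0.59 (limma, adjusted p = 0.0498), just past the threshold. Mknk1, a kinase of eIF4E, was at 2673, 2844 and 2619 in fl/fl and 1900, 2083 and 2281 in KO (scaled counts, replicates in order). Its groups did not overlap either, at a log2 fold change of -0.38 (limma, unadjusted p = 0.0215, adjusted p = 0.193). The other kinase of eIF4E, Mknk2, was at 0.44 on the log2 fold change scale (limma, adjusted p = 0.567) and its lowest value, 3688 scaled counts, in fl/fl replicate 3. The inhibitors Eif4ebp1, Eif4ebp2 and Eif4ebp3, which sequester eIF4E, had log2 fold changes of -0.15, -0.31 and 0.13 (limma, adjusted p = 0.668 and 0.393 for Eif4ebp1 and Eif4ebp2, and higher for Eif4ebp3). Of these inhibitors, Eif4ebp1 had its highest value, 6678 scaled counts, in fl/fl replicate 3, and Eif4ebp2 had every KO value below every fl/fl value. The eIF2 alpha kinases Eif2ak1 to Eif2ak4 ran from -0.012 to 0.32, with overlapping groups for each. The highest was Eif2ak4, which had its lowest value, 1546 scaled counts, in fl/fl replicate 3, as did Eif2ak3 (646).

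Of 34 other cytosolic translation factors, 31 were tested, and 0 passed the limma threshold, with 2 higher (Hbs1l and Pabpc4) and 1 lower (Eif2s3y) at an unadjusted p below 0.05 (median log2 fold change 0.023; edgeR called 0 and DESeq2 1, Eif2s3y). These shares were 6.45% higher and 3.23% lower, against 4.58% and 13.6% of all genes. Eif2s3y, the gene of eIF2 gamma on the Y chromosome, was at 2410, 2137 and 2171 scaled counts across fl/fl replicates 1, 2 and 3, against 1060, 1684 and 1077 across KO replicates 1, 2 and 3. The groups did not overlap (log2 fold change -0.85, limma adjusted p = 0.103, DESeq2 adjusted p = 0.0241). The X-linked paralog of Eif2s3y, Eif2s3x, had a log2 fold change of 0.32 with overlapping groups (limma, adjusted p = 0.382). Other Y-linked genes, Ddx3y, Kdm5d and Uty, had log2 fold changes of 0.076, 0.29 and -0.11, with limma adjusted p-values of 0.657 to 0.909. Each of these was highest in KO replicate 2, where the X-linked gene Xist was lowest (1689 scaled counts, against 4550 in KO replicate 1). The part of pool sex in Eif2s3y was not tested. Hbs1l, a factor of ribosome rescue, had a log2 fold change of 0.29 (limma, unadjusted p = 0.0488, adjusted p = 0.272). Of 10 mitochondrial translation factors, 0 passed the limma threshold and 2 were higher at an unadjusted p below 0.05 (median 0.072; edgeR called 0 and DESeq2 1, Mtrf1l), where 4.58% of all genes were higher and DESeq2 called 6.95% of them. Mtrf1l, a mitochondrial release factor, was at 993, 1052 and 1131 in fl/fl and 1411, 1411 and 1288 in KO (scaled counts, replicates in order). All KO values were above all fl/fl values (log2 fold change 0.37, limma adjusted p = 0.223, DESeq2 adjusted p = 0.0448). Mtfmt, which formylates the mitochondrial initiator tRNA, had a log2 fold change of 0.36 (limma, unadjusted p = 0.0455, adjusted p = 0.264).

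The counts of calls moved with single libraries. Over all genes tested, 39 were higher and 64 lower in KO with all 6 libraries, a split that was 35 and 22 with median-of-ratios size factors, 35 and 32 with TMM factors, 38 and 26 with quantile normalization and 34 and 26 with edgeR. Without fl/fl replicates 1, 2 and 3 in turn it was 4 and 3, 4 and 2, and 120 and 257, and without KO replicates 1, 2 and 3 it was 1 and 2, 15 and 4, and 1 and 2. None of the 41 factors was past the limma threshold in any of these 6 fits. At an unadjusted p below 0.05 the factors counted 2 higher and 0 lower without fl/fl replicate 1 (Eif4g1 and Etf1), 0 higher and 0 lower without fl/fl replicate 2, and 6 higher and 2 lower without fl/fl replicate 3. The 2 lower ones in the last case were Eif4g3 and Eef2k. The share of all genes at that p also moved, from 18.2% with all libraries to 23.8% without fl/fl replicate 3, against 19.5% of the factors, and it was 17.8% and 14.9% without fl/fl replicates 1 and 2. Without KO replicates 1, 2 and 3 the counts were 0 higher and 0 lower, 1 higher and 0 lower (Etf1), and 3 higher and 0 lower (Eif3l, Eif4a1 and Etf1), and the shares of all genes 11.5, 15.1 and 12.4%. The spread between libraries of 1 group set the precision: the coefficient of variation of the scaled counts had a median over the factors of 13.4% in fl/fl and 8.98% in KO, against 20.7% and 11.7% over all genes tested. The standard error of the log2 fold change had a median of 0.14 over the factors and 0.21 over all genes tested.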

How the data were processed

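Trizol-extracted RNA of the sorted stem cells was amplified (SMART-Seq v4) and libraries were prepared with Nextera XT, per the labels' protocols. Neither kit marks strand. Reads were aligned with STAR and counted with featureCounts on mm10, per the submitters' processing notes, with versions and annotation not given in the sources used here. A single table of 24110 genes was deposited by the authors, with raw read counts for fl/fl replicate 2. In the other 5 deposited columns the values are a scaled signal, each count being brought to the total of fl/fl replicate 2, per the file headers and the last line. Undoing this gave whole reads for 100% of values (tolerance 1e-06), and these gave the depth. Gene length, also deposited, is no measurement.

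The test was limma (trend, two-sided) on log2(value + 1) over all 6 libraries, for the 14113 genes whose mean reached 10, with Benjamini-Hochberg adjustment over all of them and a threshold of 0.05. Fold changes on this scale understate those of low genes. Alternatives were other pseudocounts (0.1 and 10), no filter and a mean of 50, 3 other scalings, edgeR and DESeq2 on the recovered reads, the replicate number as a block, and leaving out each library. R 4.3.3, limma 3.58.1, edgeR 4.0.16, DESeq2 1.42.0, Python 3.11.15 and matplotlib 3.10.9 were used, and the fits were tested on simulated data. Between any 2 libraries the chi-square per degree of freedom was at least 27.3, so none repeated another.

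The members and gene lists were chosen with earlier results of these data known. All 41 members were named; values in every library were given for those with an unadjusted limma p below 0.05, the 3 with the highest levels per kilobase and the core factors of each step, and for members whose libraries stood apart, which were chosen after their values were seen. From each further list the 2 with the smallest p were named, and other genes were named after their values were seen. Coordinates are from GENCODE M21 on GRCm38/mm10, with all 41 symbols matched; exons of 9 members overlap a gene on the other strand, 2 of them over more than 10% of exon bases. Promoter sequences are from RefSeq on GRCm38.p6.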

Additional observations from a re-analysis of the deposited data

How the results depend on the processing

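No factor passed the limma threshold under any alternative with limma or edgeR, and DESeq2 called 1 higher (Etf1) and 0 lower. Over all genes, DESeq2 moved the calls from 39 higher and 64 lower to 365 and 616, and the lower calls were 38 without the filter, 22 with median-of-ratios size factors, 32 with TMM factors, 26 with quantile normalization and 26 with edgeR. Without each library in turn the higher calls ran from 1 to 120 and the lower calls from 2 to 257, and the median of the factors from -0.014 to 0.13. With median-of-ratios size factors the log2 fold changes of Eif5, Eif6, Eif2b2, Eif3d, Eif3g, Eif3h, Eif4e, Eef1b2 and Eef1d turned to 0.039, 0.036, 0.072, 0.063, 0.0063, 0.042, 0.046, 0.064 and 0.035. With TMM factors the log2 fold changes of Eif5, Eif6, Eif2b2, Eif3d, Eif3h, Eif4e, Eef1b2 and Eef1d turned to 0.012, 0.0086, 0.045, 0.036, 0.015, 0.019, 0.036 and 0.0079. With quantile normalization the log2 fold change of Eif2b2 turned to 0.0053. With edgeR the log2 fold changes of Eif5, Eif6, Eif2b2, Eif3d, Eif3h, Eif4e, Eef1b2 and Eef1d turned to 0.019, 0.00097, 0.039, 0.041, 0.0022, 0.015, 0.031 and 0.0079. With DESeq2 the log2 fold changes of Eif5, Eif6, Eif2b2, Eif3d, Eif3g, Eif3h, Eif4e, Eef1b2 and Eef1d turned to 0.043, 0.024, 0.062, 0.065, 0.00050, 0.026, 0.039, 0.054 and 0.031. Without each library in turn the log2 fold changes ran from -0.16 to 0.030 for Eif1, -0.10 to 0.0013 for Eif5, -0.063 to 0.067 for Eif5b, -0.14 to 0.086 for Eif6, -0.021 to 0.23 for Eif2s2, -0.071 to 0.13 for Eif2b1, -0.11 to 0.11 for Eif2b2, -0.017 to 0.13 for Eif3a, -0.084 to 0.058 for Eif3d, -0.20 to 0.034 for Eif3f, -0.16 to 0.041 for Eif3g, -0.13 to 0.11 for Eif3h, -0.061 to 0.16 for Eif3i, -0.0038 to 0.29 for Eif3k, -0.018 to 0.20 for Eif3m, -0.10 to 0.074 for Eif4e, -0.31 to 0.33 for Eif4g3, -0.14 to 0.14 for Eef1b2, -0.14 to 0.052 for Eef1d, -0.0012 to 0.16 for Eef2 and -0.078 to 1.32 for Gcn1l1. All had an adjusted p above the threshold with all libraries, and the cause of the turns was not tested. For the pairing, each replicate number and its title prefix occur in 1 library of each genotype, and the labels do not say what they mark. Deviations from the group means of same-number libraries correlated at -0.140, 0.0675 and -0.256 across genes, and 1 of 3 fl/fl libraries correlated best with its own number. With the replicate number as a block (2 residual degrees of freedom) limma called 1 gene higher and 0 lower over all genes, 0 factors, and Prmt5 had an adjusted p of 0.0618. At 37834096 reads or more per library, counting error was small for these genes beside the spread between libraries.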

Other observations

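The gene of the list of regulators with the highest log2 fold change was Gcn1l1, the activator of the eIF2 alpha kinase GCN2, named after its values were seen. It was at 10833, 10599 and 1547 scaled counts across fl/fl replicates 1, 2 and 3, against 9419, 10913 and 10178 across KO replicates 1, 2 and 3. Fl/fl replicate 3 was far below the other libraries, as for the Eif4g genes, and the log2 fold change of 0.85 became -0.078 without that library. Eif3j1 and Eif3j2, a pair of near-identical genes for the loosely bound eIF3 subunit j, were both listed at 0 in all 6 libraries, while the other 12 eIF3 subunits had at least 4475 scaled counts; the cause was not tested. Eef1a2, the paralog of Eef1a1 in nerve and muscle, reached 1.07 scaled counts in 1 library and was at 0 in the others. The poly(A)-binding protein gene Pabpc4 had a log2 fold change of 0.53 with groups that did not overlap (limma, adjusted p = 0.274), and Abce1, which splits ribosomes after termination, one of 0.35, also with groups apart (limma, adjusted p = 0.329). Both had their lowest value in fl/fl replicate 3, at 1002 and 10387 scaled counts, and without it their log2 fold changes were 0.29 and 0.17 (limma, adjusted p = 0.224 and 0.281; alternatives chosen after seeing the data).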
